A study of Mus musculus with 32 samples.

Results

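The proteasome subunit genes of mouse 3T3-L1 adipocytes were followed through a time course of 2 redox drugs. A gene was a member when its platform symbol was Psm followed by a letter from a to g and a number, a rule that takes in the subunits of the 20S core and the 19S cap, the activators, the inhibitor and the assembly chaperones. There were 46 members among 21506 genes tested. By letter, 7 were Psma genes, 11 Psmb, 6 Psmc, 14 Psmd, 3 Psme, 1 Psmf and 4 Psmg. Psma4 was carried only by probe sets that also name another gene, so it was kept out of these 46, and Psme2 was not analysed here.

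3T3-L1 is a mouse fibroblast line that becomes fat cell-like once differentiated. The drug groups were AF+BCNU, which combined 1 µM auranofin with 100 µM BCNU, and each drug alone at the same dose (AF and BCNU), sampled after 2, 4, 8 and 24 h. They were set against control cells at 4, 8 and 24 h and untreated cells at 0 h. Auranofin blocks thioredoxin reductase and BCNU blocks glutathione reductase, enzymes of the main thiol-reducing systems of the cell. There were 2 arrays in each of 16 groups. No label states that the arrays of a group came from different cultures, and p-values therefore measure only the spread between these arrays, which may be technical. No control was labelled for 2 h, so the 0 h arrays served there, which is an assumption.

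The proteasome is the protease that degrades proteins marked with ubiquitin. Its 20S core is a barrel of outer rings of alpha subunits (Psma genes) around inner rings of beta subunits (Psmb genes), and Psmb5, Psmb6 and Psmb7 carry the active sites. The 19S cap recognises ubiquitin chains, removes them and unfolds the substrate with a ring of ATPases (Psmc genes) that sits among non-ATPase subunits (Psmd genes). Mammalian cells that lose proteasome activity are known to raise many of these genes together through the transcription factor NRF1, and oxidised proteins are among the substrates of the 20S core.

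All values are log2 expression levels, and a change is the mean of the treated pair minus the mean of the control pair, ± SE from limma. A gene was called when its adjusted p (limma, Benjamini-Hochberg over all genes of the contrast) was under 0.05 and its change was over 0.5 in size, the thresholds of the study. Array medians ran from 3.55 to 3.69, and replicate arrays correlated at r of 0.993 to 0.995 across genes, which are not independent replicates. A level of 2.30 or less, the highest lower quartile of any array, was taken as near background. Among the members only Psma8, with a median level of 2.23, had a group mean that low. Other members also lay low. Psmb11 and Psmb9 had median levels of 2.71 and 3.06, under the array medians. Psma5, Psmb8, Psmb3 and Psmg4, at 3.84, 4.2, 4.28 and 4.33, were little above the array medians. Whether such levels are clear of background was not tested. The adipocyte marker Adipoq, 11.31 to 11.79 over the arrays, was well above 2.30 in every group.

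Across the 12 comparisons with control, the members moved by small amounts, and calls were made only with both drugs. With AF+BCNU for 24 h, 4 of 46 members were called higher and 0 lower, where 4.88% of all genes were called higher and 4.25% lower. With AF+BCNU for 8 h, 3 of 46 were called higher and 0 lower, where the shares of all genes were 5.72% and 5.58%. These shares of members rest on 4 and 3 genes. The share called higher was near that of all genes at 8 h and somewhat above it at 24 h, and the share called lower was below it. An unadjusted p under 0.05 was found for 20 of 46 members at 24 h and 17 of 46 at 8 h. These are larger shares than the 24.6% and 28.3% of all genes with such a p. With AF+BCNU for 2 and 4 h no member was called, and 5 and 13 had an unadjusted p under 0.05, where 2975 and 4604 of the 21506 genes did. The shares of all genes called at those times were 0.632% and 2.53% higher and 0.86% and 3.31% lower. Without the minimum change, 10 members at 24 h and 8 at 8 h passed the adjusted p on the higher side, where 6.7% and 7.81% of all genes did.

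**Figure D1:**
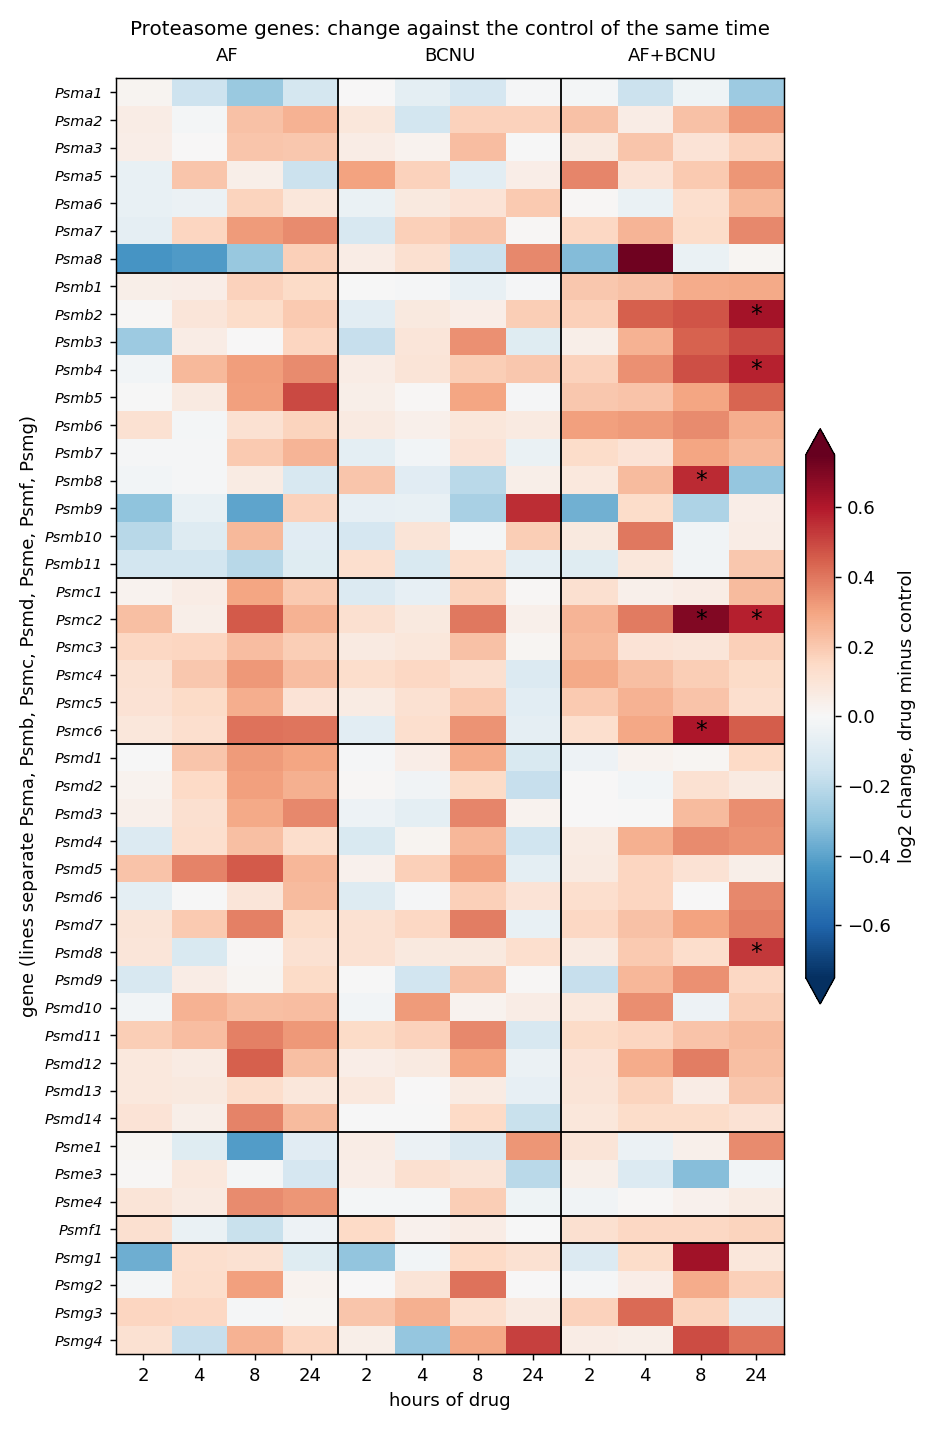
Log2 change against the control of the same time (colour, drug minus control) for the 46 members (rows, grouped by letter) with AF, BCNU and AF+BCNU at 2, 4, 8 and 24 h (columns), where asterisks mark calls. The 3 calls at 8 h and the 4 at 24 h lie in the AF+BCNU columns, and the Psmc and Psmd rows are above 0 in all 20 genes with AF at 8 and 24 h, BCNU at 8 h and AF+BCNU at 24 h.

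Most members lay above 0 with both drugs. With AF+BCNU for 24 h, 42 of 46 members were above 0 with a median change of 0.214, while 51.7% of all genes were above 0 with a median of 0.012. At 2, 4 and 8 h of AF+BCNU, 37, 40 and 39 members were above 0, with medians of 0.090, 0.164 and 0.177. The shares of all genes above 0 at those times were 50.1%, 54.9% and 56.2%, with medians of 0, 0.029 and 0.047. Both treated arrays lay above both control arrays for 33 members at 24 h (26.7% of all genes) and for 29 at 8 h (30.8% of all genes). These counts describe the list and were not tested as a list, since subunits of 1 complex are not replicates and the members were chosen with results of these data known. The 8 h median was 0.095 once each array was centred on its own median, under which the median of all genes was -0.035.

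The strongest single rise at 24 h belonged to Psmb2, a beta ring subunit without an active site. Its level was 9.36 and 9.37 in AF+BCNU cells at 24 h, against 8.83 and 8.65 in controls. The groups did not overlap, and the change was 0.63 ± 0.10, or 1.54-fold (adjusted p = 0.000127). At 4 and 8 h of AF+BCNU Psmb2 was at 9.46 and 9.29 and at 9.43 and 9.35, against 8.91 and 8.94 and 8.94 and 8.89 in the controls of those times. Those changes, 0.45 ± 0.10 and 0.47 ± 0.10, passed the adjusted p (0.00482 and 0.00171) but not the minimum change. With AF or BCNU alone Psmb2 stayed between 0.05 and 0.20 above control from 4 to 24 h.

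Psmb4, another beta ring subunit without an active site, was at 8.17 and 8.22 in AF+BCNU cells at 24 h and at 7.63 and 7.60 in controls. It rose by 0.58 ± 0.10, or 1.49-fold (adjusted p = 0.000452). Psmb4 also had AF+BCNU changes of 0.34 ± 0.10 at 4 h and 0.48 ± 0.10 at 8 h, with adjusted p of 0.0387 and 0.00208, both under the minimum change. The AF+BCNU levels of Psmb4 were above the control levels on every array at 4, 8 and 24 h. With a single drug at 24 h Psmb4 was at 8.047 and 7.897 (AF) and at 7.735 and 7.904 (BCNU), above both controls but not called. The AF+BCNU level exceeded these by 0.22 ± 0.10 and 0.37 ± 0.10 (adjusted p = 0.198 and 0.0176).

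Psmc2, an ATPase of the 19S base, was called at both late times. Its levels are medians over several probe sets, whose separate values are not given here. At 8 h it was at 8.30 and 8.23 in AF+BCNU cells, against 7.48 and 7.65 in controls, a rise of 0.70 ± 0.12 or 1.62-fold (adjusted p = 0.000333). With a single drug at 8 h Psmc2 was at 7.96 and 8.09 (AF) and at 7.92 and 8.00 (BCNU), above both controls but not called. The AF+BCNU level exceeded these by 0.24 ± 0.12 and 0.30 ± 0.12 (adjusted p = 0.214 and 0.108). At 24 h Psmc2 was at 8.07 and 8.03 in AF+BCNU cells, against 7.66 and 7.28 in controls, a rise of 0.58 ± 0.12 or 1.5-fold (adjusted p = 0.0021). The control pair at 24 h lay further apart than any other pair named here for Psmc2, and without the second 24 h control array the change was 0.39 (adjusted p = 0.0746).

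Psmc6, a further base ATPase, was at 10.69 and 10.75 in AF+BCNU cells at 8 h and at 10.19 and 10.05 in controls. It rose by 0.60 ± 0.09, or 1.52-fold (adjusted p = 6.79e-05). At 24 h Psmc6 was at 10.46 and 10.45 in AF+BCNU cells and at 10.01 and 10.00 in controls, a change of 0.46 ± 0.09 that passed the adjusted p of 0.0013 and not the minimum change. Among the 12 comparisons with control, it was the member that most often passed the adjusted p, and its other changes were 0.41 ± 0.09 with AF at 8 h (0.018), 0.40 ± 0.09 with AF at 24 h (0.0226) and 0.34 ± 0.09 with BCNU at 8 h (0.0423).

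Psmd8, a non-ATPase subunit of the 19S lid, was called at 24 h alone. It was at 10.73 and 10.66 in AF+BCNU cells, against 10.29 and 10.05 in controls, and rose by 0.53 ± 0.10 or 1.44-fold (adjusted p = 0.00083). Its first control array at 24 h lay close to the levels of the AF and BCNU cells, which were 10.32 and 10.25 and 10.30 and 10.29. Without the second 24 h control array the change was 0.41 (adjusted p = 0.031), and without the first AF+BCNU array it was 0.49 (adjusted p = 0.0154), both under the minimum change.

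Psmb8, a catalytic subunit of the immunoproteasome, the form of the core that immune signals induce, was called at 8 h. It was at 4.80 and 4.75 in AF+BCNU cells, against 4.06 and 4.37 in controls, a rise of 0.56 ± 0.19 or 1.48-fold (adjusted p = 0.0466). At 24 h Psmb8 was at 4.02 and 3.89 in AF+BCNU cells and at 4.08 and 4.42 in controls, a change of -0.29 ± 0.19 (adjusted p = 0.386). The 8 h call did not hold when any 1 of the 4 arrays was left out, with adjusted p of up to 0.314.

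**Figure D2:**
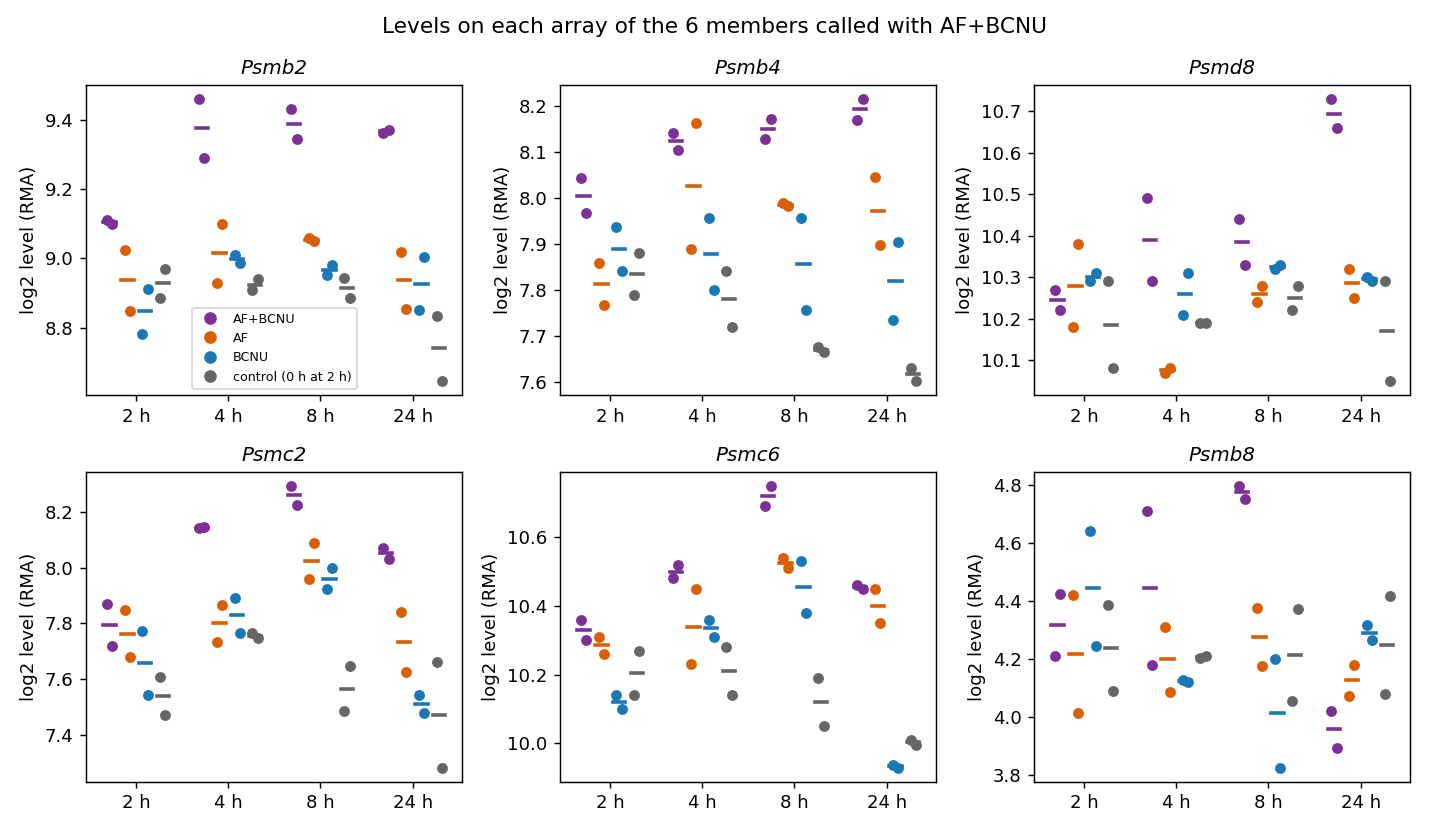
Log2 level on each array (points, with pair means as bars) of the 6 members called with AF+BCNU, by time, with AF+BCNU, AF, BCNU and control cells placed in that order within each time and 0 h cells as the control at 2 h. Psmb2, Psmb4 and Psmc2 lie above control on both AF+BCNU arrays at 4, 8 and 24 h, while Psmb8 does so at 8 h and lies at 4.02 and 3.89 at 24 h, against 4.08 and 4.42 in controls.

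The count of 4 at 24 h depended on the control arrays. Without the second 24 h control array 2 members were called (Psmb2 and Psmb4), and with all 8 untreated and control arrays as the control 1 was called (Psmd8), since the changes of Psmb2, Psmb4 and Psmc2 were then 0.49, 0.47 and 0.47. With the arrays of the 2 compared groups alone, no member was called at 8 or 24 h, while 12 and 11 had an unadjusted p under 0.05.

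Promoter windows are shown for Psmc6, Psmb4 and Psmd8 of the called members, but not for Psmb2, Psmc2 and Psmb8. Psmd5 and Psme4 are shown since their change with both drugs at 8 h fell short of the summed single-drug changes (described further on). Psmb5 is shown as the only one of these 6 with matches to 2 of the motifs searched. The 6 are a selection, and matches among them do not give the share of the members. The windows are from RefSeq on GRCm38.p6 and run from 250 bases before to 50 bases after the start of the gene: Psmc6 at chr14:45329574-45329873 (plus strand), Psmb4 at chr3:94886909-94887208 (minus strand), Psmd8 at chr7:29180624-29180923 (minus strand), Psmd5 at chr2:34870913-34871212 (minus strand), Psme4 at chr11:30771525-30771824 (plus strand) and Psmb5 at chr14:54617946-54618245 (minus strand). Each is written 5′ to 3′ on the strand of its gene, and capitals mark matches to TGACNNNGC, the core of the antioxidant response element, or to GAANNTTC, a pair of inverted heat shock units.
Psmc6: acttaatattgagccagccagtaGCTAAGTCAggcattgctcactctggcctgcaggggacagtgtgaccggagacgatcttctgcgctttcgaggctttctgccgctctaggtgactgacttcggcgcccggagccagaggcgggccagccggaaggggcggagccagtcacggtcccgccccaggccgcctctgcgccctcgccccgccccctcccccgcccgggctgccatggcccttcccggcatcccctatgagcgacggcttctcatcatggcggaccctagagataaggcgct
Psmb4: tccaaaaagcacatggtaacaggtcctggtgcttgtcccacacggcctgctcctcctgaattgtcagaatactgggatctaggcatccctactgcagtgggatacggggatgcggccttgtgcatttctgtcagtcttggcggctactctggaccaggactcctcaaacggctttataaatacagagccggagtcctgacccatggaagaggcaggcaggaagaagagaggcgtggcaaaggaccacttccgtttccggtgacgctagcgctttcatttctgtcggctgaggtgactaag
Psmd8: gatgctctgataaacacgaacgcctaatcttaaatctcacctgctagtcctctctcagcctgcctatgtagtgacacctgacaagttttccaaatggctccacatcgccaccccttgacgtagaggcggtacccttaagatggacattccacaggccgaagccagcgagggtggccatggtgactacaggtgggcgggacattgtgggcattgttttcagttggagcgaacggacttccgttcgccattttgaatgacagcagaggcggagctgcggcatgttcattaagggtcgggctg
Psmd5: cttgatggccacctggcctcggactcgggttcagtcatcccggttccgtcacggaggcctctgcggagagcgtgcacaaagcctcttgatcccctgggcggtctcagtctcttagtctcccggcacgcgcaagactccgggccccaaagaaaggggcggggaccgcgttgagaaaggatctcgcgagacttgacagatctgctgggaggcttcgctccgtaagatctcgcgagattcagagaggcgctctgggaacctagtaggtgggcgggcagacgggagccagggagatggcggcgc
Psme4: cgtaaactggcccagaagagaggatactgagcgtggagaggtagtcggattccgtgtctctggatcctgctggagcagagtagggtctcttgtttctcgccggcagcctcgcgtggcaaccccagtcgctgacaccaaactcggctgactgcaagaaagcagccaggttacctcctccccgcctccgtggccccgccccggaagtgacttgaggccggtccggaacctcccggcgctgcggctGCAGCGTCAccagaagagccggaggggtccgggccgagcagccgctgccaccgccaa
Psmb5: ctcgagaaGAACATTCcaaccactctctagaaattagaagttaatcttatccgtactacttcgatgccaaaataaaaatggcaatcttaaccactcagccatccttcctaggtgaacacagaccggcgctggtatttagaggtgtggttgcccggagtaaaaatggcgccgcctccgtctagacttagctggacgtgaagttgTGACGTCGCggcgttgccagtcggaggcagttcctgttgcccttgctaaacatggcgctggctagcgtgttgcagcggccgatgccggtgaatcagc

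Of the 46 members, 38 had at least 1 window in the table, 40 windows in all, and 3 motifs were searched on both strands. TGACNNNGC was found in 6 of the 40 windows, 15% against 12.4% of all 32851 windows, and the genes were Psmb5, Psmb6, Psmc6, Psmd9, Psmd12 and Psme4. In Psmb5 the match began at -47 from the start, in Psmc6 at -227 and in Psme4 at -7. GAANNTTC was found in 3 windows (Psmb5, Psmb9 and Psmf1), 7.5% against 7.86% of all, and CCAAT, the box bound by NF-Y, in 14, 35% against 37.4% of all. No matches to different motifs overlapped in a member window. The shares of members were close to those of all windows, and a match is a string of letters, not a binding site.

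The other members of the 20S core are given by ring. Of the 7 Psma genes 0 were called in any comparison with control, where at most 5.72% of all genes were called higher and 5.58% lower. With AF+BCNU at 24 h 6 of 7 were above 0 with a median of 0.24, against 51.7% of all genes. Psma2 and Psma7 had changes of 0.32 ± 0.10 and 0.36 ± 0.10 there (adjusted p = 0.0412 and 0.0162), and Psma1 went the other way. Psma1 was at 10.03 and 10.01 in AF+BCNU cells at 24 h and at 10.27 and 10.32 in controls, a change of -0.27 ± 0.08 that passed the adjusted p of 0.0367 and not the minimum change. Psma8, the testis form of an alpha subunit, had group means near background in some groups and an AF+BCNU change of 0.015 ± 0.254 at 24 h (adjusted p = 0.984).

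In the beta ring, 11 of 11 Psmb genes were above 0 with AF+BCNU at 4 h, 8 of 11 at 8 h and 10 of 11 at 24 h, with medians of 0.237, 0.295 and 0.275. The 3 subunits with constitutive active sites had changes between 0.294 and 0.353 with AF+BCNU at 8 h. Of these, Psmb6 (0.35 ± 0.11) and Psmb7 (0.30 ± 0.10) passed the adjusted p (0.0259 and 0.042) and Psmb5 (0.29 ± 0.13, adjusted p = 0.147) did not. At 24 h Psmb5 was at 8.49 and 8.62 in AF+BCNU cells, at 8.68 and 8.55 in AF cells and at 8.05 and 8.17 in BCNU cells, against 8.14 and 8.09 in controls. Its changes were 0.44 ± 0.13 with AF+BCNU (adjusted p = 0.0312), 0.50 ± 0.13 with AF (adjusted p = 0.0673) and -0.01 ± 0.13 with BCNU (adjusted p = 0.997).

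The immunoproteasome forms Psmb8, Psmb9 and Psmb10 were all above 0 with AF+BCNU at 4 h, and 1 of 3 at 8 h and 2 of 3 at 24 h were. Psmb9, a catalytic immunoproteasome subunit, differed from control by -0.23 ± 0.19 and 0.05 ± 0.19 with AF+BCNU at 8 and 24 h, with adjusted p of 0.49 and 0.928. Psmb10, the remaining catalytic immunoproteasome subunit, had a change of 0.39 ± 0.12 with AF+BCNU at 4 h (adjusted p = 0.0474), then -0.03 ± 0.12 at 8 h and 0.06 ± 0.12 at 24 h. Psmb11, the thymus form, was between 2.40 and 3.15 on all arrays and was called in no comparison. Of 8 measured genes of antigen presentation and its interferon control, 0 were called higher with AF+BCNU at either late time, and 1, the interferon regulatory factor Irf1, was called lower at 8 h, at 6.56 and 6.63 in AF+BCNU cells against 6.96 and 7.25 in controls (-0.51 ± 0.12, adjusted p = 0.00695). Of all genes, 5.72% were called higher and 5.58% lower at 8 h, and 4.88% and 4.25% at 24 h.

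The 20 Psmc and Psmd genes are called cap genes here, though Psmd5, Psmd9 and Psmd10 encode chaperones that assemble the base of the cap rather than subunits of it. With AF+BCNU for 24 h, 20 of 20 Psmc and Psmd genes were above 0, where 51.7% of all genes were. The 20 had a median of 0.213 and a range of 0.042 to 0.581. Both AF+BCNU arrays were above both controls for 17 of the 20, and for 26.7% of all genes. The mean over the 20 genes, taken as the difference from the control pair, was 0.259 and 0.247 on the 24 h AF+BCNU arrays, against 0.035 and -0.035 on the control arrays. The corresponding means of the 18 Psma and Psmb genes were 0.233 and 0.225 on the AF+BCNU arrays, against 0.027 and -0.027 on the controls.

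With a single drug for 8 h the cap genes were again all above 0, with no call. AF gave 20 of 20 above 0 with a median of 0.301, and BCNU 20 of 20 with a median of 0.220, where 48.7% and 50.5% of all genes were above 0. The shares of all genes called were 0.916% higher and 0.516% lower with AF, and 0.879% higher and 1.38% lower with BCNU. Over all 46 members the medians were 0.222 with AF and 0.159 with BCNU, and 38 were above 0 with each drug. Both treated arrays lay above both controls for 29 members with each drug, against 21.6% of all genes with AF and 21.2% with BCNU. The 20S genes at 8 h had medians of 0.152 with AF (14 of 18 above 0) and 0.093 with BCNU (11 of 18). Those below 0 were Psma1, Psma8, Psmb9 and Psmb11 with AF. With BCNU they were Psma1, Psma5, Psma8, Psmb1, Psmb8, Psmb9 and Psmb10. Of the 20S genes, Psma5, Psma8, Psmb3, Psmb8, Psmb9 and Psmb11 had the low levels given above. The lowest cap gene, Psmd9, had a median level of 6.35. The part of these levels in the difference between core and cap was not tested. Of all members, 4 passed the adjusted p alone with AF at 8 h, where 1.23% of all genes did: Psmc6 at 0.41 ± 0.09, Psmd5 at 0.46 ± 0.08, Psmd12 at 0.45 ± 0.10 and Psme4 at 0.35 ± 0.09 (adjusted p = 0.018, 0.00392, 0.0147 and 0.0364). With BCNU at 8 h, 2 did, where 1.54% of all genes did: Psmc6, and Psmd5 at 0.31 ± 0.08 (adjusted p = 0.0383). Unadjusted p was under 0.05 for 23 members with AF and 14 with BCNU, where it was for 12.6% and 14.6% of all genes.

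At 24 h the single drugs gave different cap medians. AF for 24 h left 20 of 20 cap genes above 0 with a median of 0.231, where 49.3% of all genes were above 0, and Psmc6 was the 1 member that passed the adjusted p on the higher side (1.09% of all genes did). BCNU for 24 h left 8 of 20 above 0 with a median of -0.059, where 48.9% of all genes were above 0, and no member passed. No member was called in either comparison, where 0.921% and 0.121% of all genes were called higher and 0.358% and 0.0697% lower. An unadjusted p under 0.05 was found for 16 and 4 members, where it was for 10.6% and 7.77% of all genes. The median over all members with AF was 0.176, and 0.093 without the second 24 h control array.

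The largest changes of the single drugs at 24 h were not called. With AF they were Psmb5, Psmc6 and Psmd3 (0.36 ± 0.11, adjusted p = 0.155) on the higher side, and Psma5 (-0.16 ± 0.20), Psma1 (-0.13 ± 0.08) and Psme3 (-0.13 ± 0.10) on the lower, with adjusted p of 0.878, 0.661 and 0.758. With BCNU they were Psmb9 (0.55 ± 0.19, adjusted p = 0.388), Psmg4 (0.51 ± 0.23, adjusted p = 0.607) and Psma8 (0.36 ± 0.25, adjusted p = 0.81) on the higher side, and Psme3 (-0.20 ± 0.10), Psmd2 (-0.18 ± 0.09) and Psmd14 (-0.17 ± 0.12) on the lower, with adjusted p of 0.658, 0.669 and 0.808. Psmd14 is the enzyme of the cap that cuts off ubiquitin chains. With AF+BCNU the lower side held Psmb8, Psma1 and Psmg3 (-0.07 ± 0.23, adjusted p = 0.919). Of these genes, Psma5, Psma8, Psmb8, Psmb9 and Psmg4 had the low levels given above. Several of these changes rested on single arrays. On leaving out 1 array of the 4, those with BCNU ran from 0.25 to 0.86 for Psmb9, from 0.14 to 0.58 for Psma8, from 0.29 to 0.74 for Psmg4, from -0.36 to -0.04 for Psme3 and from -0.26 to -0.10 for Psmd2. Those with AF ran from 0.22 to 0.50 for Psmd3 and from -0.21 to -0.04 for Psme3, and those with AF+BCNU from -0.46 to -0.12 for Psmb8 and from -0.37 to 0.24 for Psmg3.

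**Figure D3:**
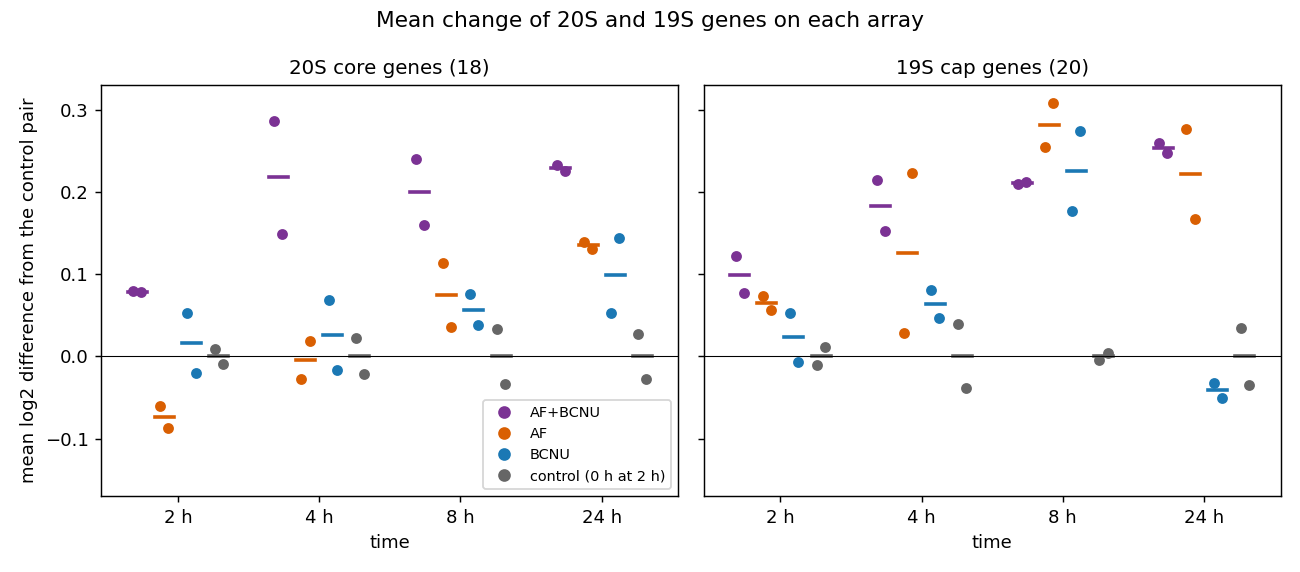
Mean log2 difference from the control pair of the same time, over 18 core genes (left) and 20 cap genes (right), on each array (points, with pair means as bars) of AF+BCNU, AF, BCNU and control cells in that order within each time. Cap genes at 24 h had means of 0.259 and 0.247 with AF+BCNU, 0.276 and 0.167 with AF and -0.032 and -0.050 with BCNU, against 0.035 and -0.035 in controls.

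The direct comparison of AF with BCNU at 24 h tested that difference gene by gene. In it 1 member was called higher (Psmb5), with 1.34% of all genes called higher. Psmb5 was 0.51 ± 0.13 higher with AF than with BCNU (adjusted p = 0.0391), and that call was lost on leaving out any 1 of the 4 arrays, with adjusted p of up to 0.309. Without the minimum change 7 members passed, where 1.85% of all genes did: Psmb5, Psmc6 (0.47 ± 0.09, adjusted p = 0.00507), Psmd1, Psmd2, Psmd5, Psmd11 and Psme4. Of the 20 cap genes 19 were above 0, with a median of 0.246, against 50.8% of all genes.

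The difference between 8 and 24 h of BCNU did not pass the test in any cap gene. As 24 h effect minus 8 h effect, the cap genes had a median of -0.316 with 2 of 20 above 0, while the median of all genes was -0.003, and 49.6% of all genes were above 0. In these 46 members 0 were called, 12 had an unadjusted p under 0.05 (10.6% of all genes did), and the smallest adjusted p was 0.15, where 0.214% of all genes were called higher and 0.274% lower. For AF and AF+BCNU the cap medians of the same difference were -0.049 and 0.003.

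With both drugs set against BCNU at 24 h, every cap gene was higher on both arrays. In that comparison 2 members were called, Psmc2 and Psmc6, with 4.38% of all genes called higher. Psmc6 was at 10.46 and 10.45 in AF+BCNU cells, against 9.94 and 9.93 in BCNU cells, a difference of 0.53 ± 0.09 (adjusted p = 0.000362). Psmc2 was at 8.07 and 8.03 in AF+BCNU cells, against 7.54 and 7.48 in BCNU cells, a difference of 0.54 ± 0.12 (adjusted p = 0.00429). Over the 20 cap genes the median was 0.264 and both AF+BCNU arrays were above both BCNU arrays in 20, against 26.9% of all genes. Centring each array on its median left both differences under the minimum change, at 0.48 and 0.46. Set against AF at 24 h, 0 members were called with AF+BCNU, where 1596 of the 21506 genes were. Cap genes then lay on both sides of 0, from -0.21 (Psmd5) to 0.41 (Psmd8). Psmc6 and Psmc2 differed from AF by 0.06 ± 0.09 and 0.32 ± 0.12 (adjusted p = 0.798 and 0.104).

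Earlier, 2 further members were called between drug conditions. Psmb8 at 8 h was at 4.80 and 4.75 in AF+BCNU cells, against 4.20 and 3.82 in BCNU cells, a difference of 0.76 ± 0.19 (adjusted p = 0.00847), where 5.04% of all genes were called higher. Psma8 at 4 h was at 3.21 and 2.83 in AF+BCNU cells, against 1.83 and 1.88 in AF cells, a difference of 1.16 ± 0.25 (adjusted p = 0.00658), where 2.11% of all genes were called higher. The AF levels of Psma8 were near background, and without the first AF+BCNU array at 4 h the difference was 0.97 (adjusted p = 0.103). The Psmb8 difference was 0.58 without the second BCNU array (adjusted p = 0.127) and 0.74 without the first AF+BCNU array (adjusted p = 0.0522).

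At 8 h the change with both drugs lay below the sum of the single-drug changes for 18 of the 20 cap genes. The interaction (AF+BCNU minus AF minus BCNU plus control) had a median of -0.314 over the cap genes with 2 of 20 above 0, where 55.6% of all genes were above 0 with a median of 0.052. Called lower were 4 of 46 members, 3 of them Psmd genes, where 3.98% of all genes were called lower. Called higher were 0 members, against 3.49% of all genes, and 18 members had an unadjusted p under 0.05, where 21.4% of all genes did. At 2, 4 and 24 h, 0 members were called, 2, 5 and 2 had an unadjusted p under 0.05 (8.53%, 12.8% and 14.7% of all genes did), and the cap medians were -0.020, 0.019 and 0.031. The shares of all genes called at those times were 0.0232%, 0.53% and 1.75% higher and 0.0325%, 1.04% and 2.01% lower.

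Psmd5, a chaperone that helps to assemble the 19S base, had the largest interaction. It was at 9.87 and 9.93 in AF+BCNU cells at 8 h, at 10.24 and 10.25 in AF cells and at 10.05 and 10.15 in BCNU cells, against 9.76 and 9.81 in controls. The AF+BCNU arrays lay between the controls and both single drugs, and the interaction was -0.66 ± 0.12 (adjusted p = 0.00116).

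Psmd1, a scaffold subunit of the base, was at 10.25 and 10.35 in AF+BCNU cells, at 10.57 and 10.62 in AF cells and at 10.49 and 10.63 in BCNU cells, against 10.27 and 10.29 in controls (interaction -0.58 ± 0.12, adjusted p = 0.00496). With a second probe set that also names Armc9 averaged in, the interaction of Psmd1 was -0.27 (adjusted p = 0.444). The AF+BCNU levels of Psmd1 overlapped those of the controls.

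Psmd11, a lid subunit, was at 10.18 and 10.19 in AF+BCNU cells, at 10.29 and 10.41 in AF cells and at 10.30 and 10.36 in BCNU cells, against 9.98 and 9.96 in controls (interaction -0.52 ± 0.15, adjusted p = 0.0321). Psme4, the activator PA200, was at 9.14 and 9.20 in AF+BCNU cells, at 9.44 and 9.55 in AF cells and at 9.20 and 9.45 in BCNU cells, against 9.13 and 9.15 in controls (interaction -0.50 ± 0.12, adjusted p = 0.0136). Over the 8 fits that each left out 1 array, Psmd5 and Psmd1 were called in all 8, Psme4 in 4 and Psmd11 in 1. The count of 4 dropped to 2 without the first control, the second AF, the second BCNU or the first AF+BCNU array of 8 h.

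**Figure D4:**
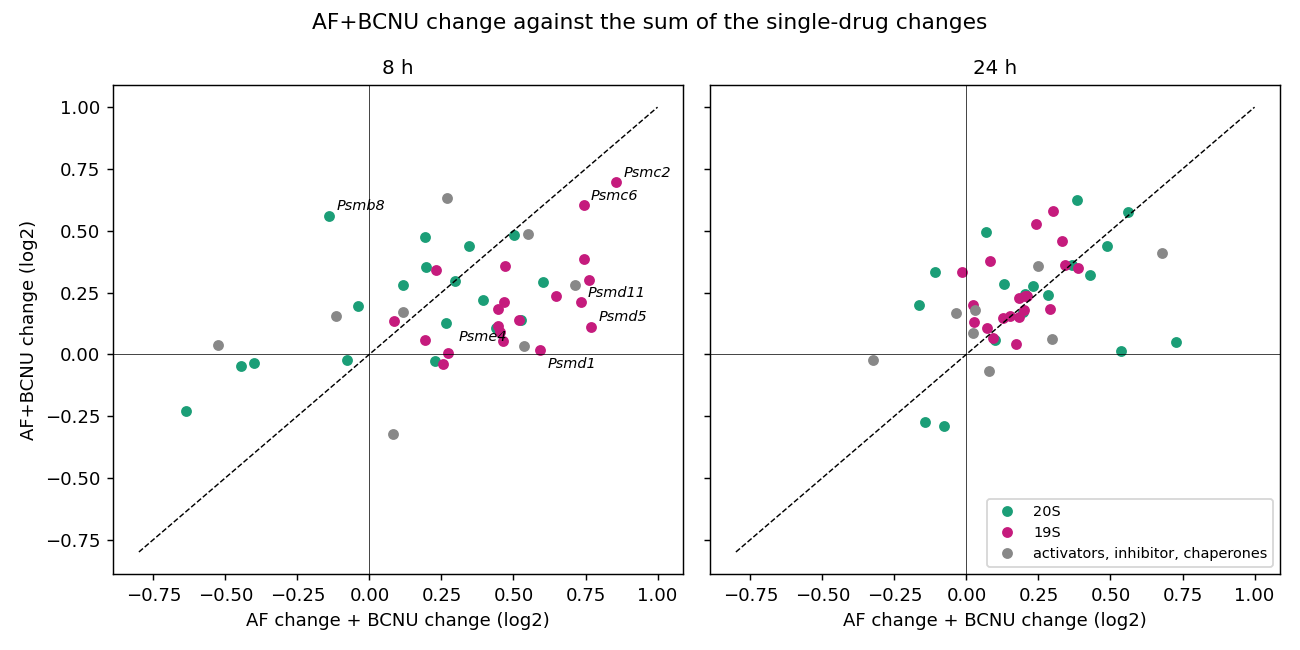
AF+BCNU change (vertical, log2) against the sum of the AF and BCNU changes (horizontal, log2) for the 46 members at 8 h (left) and 24 h (right), coloured by 20S, 19S or other class, where the dashed line marks equality. At 8 h 18 of the 20 cap genes lie below the line, while Psmb8 lies above it, and at 24 h 14 of the 20 cap genes lie above it.

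Of the activators, the inhibitor and the core chaperones, 0 were called in any comparison with control. The shares of all genes called were at most 5.72% higher and 5.58% lower, so 0 among so few genes does not set them apart. Psme1, a subunit of the activator PA28, was at 8.99 and 9.08 in AF+BCNU cells at 24 h, against 8.68 and 8.68 in controls, a change of 0.36 ± 0.13 (adjusted p = 0.0835). With AF at 8 h it was at 8.50 and 8.54, against 8.84 and 9.03 in controls (-0.42 ± 0.13, adjusted p = 0.124). Psme3, the nuclear PA28 subunit, was at 8.25 and 8.16 in AF+BCNU cells at 8 h, against 8.55 and 8.51 in controls, and its change of -0.32 ± 0.10 passed the adjusted p of 0.0294 and not the minimum change. Psme4 had changes of 0.35 ± 0.09 and 0.33 ± 0.09 with AF at 8 and 24 h (adjusted p = 0.0364 and 0.0617), and 0.03 ± 0.09 and 0.06 ± 0.09 with AF+BCNU. Psmf1, the inhibitor PI31, differed from control by 0.16 ± 0.11 and 0.17 ± 0.11 with AF+BCNU at 8 and 24 h (adjusted p = 0.415 and 0.427).

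Of the core chaperones, which pair the alpha subunits as the ring forms, 4 of 4 were above 0 with AF+BCNU at 8 h and 0 were called, with a median of 0.385. Psmg1 was at 8.39 and 7.97 in AF+BCNU cells, against 7.66 and 7.44 in controls, a change of 0.63 ± 0.24 (adjusted p = 0.0777). Psmg2, Psmg3 and Psmg4 differed from control by 0.28 ± 0.12, 0.17 ± 0.23 and 0.49 ± 0.23 there, with adjusted p of 0.144, 0.692 and 0.176. The replicate spread of Psmg1, a median pair SD of 0.184, was wider than the 0.0413 of Psmc6. Of the base chaperones besides Psmd5, Psmd9 differed from control by 0.34 ± 0.16 and 0.16 ± 0.16 and Psmd10 by -0.04 ± 0.13 and 0.18 ± 0.13 with AF+BCNU at 8 and 24 h, with adjusted p of 0.177 to 0.879.

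Without a Psm symbol, 11 genes were measured whose proteins bind or help to assemble the proteasome. Of these genes 3 were called higher with AF+BCNU at 8 h and 4 at 24 h, and 0 lower. Of all genes, 5.72% and 4.88% were called higher at those times, and 5.58% and 4.25% lower. Zfand5, a zinc finger protein that activates the 26S proteasome, was at 10.77 and 10.84 in AF+BCNU cells at 8 h, against 9.71 and 9.73 in controls (1.09 ± 0.08, adjusted p = 1.94e-08). Zfand2a, an arsenite-induced relative that binds the 19S cap, was at 9.91 and 9.91 in AF+BCNU cells at 24 h, against 8.61 and 8.70 in controls (1.26 ± 0.11, adjusted p = 9.32e-08). With AF alone at 8 h Zfand5 and Ecpas, a scaffold of the 26S proteasome, rose by 0.51 ± 0.08 and 0.535 ± 0.086 (adjusted p = 0.00204 and 0.00168). With AF+BCNU Txnl1, a thioredoxin-like protein of the cap, rose by 0.64 ± 0.09 at 8 h and 0.54 ± 0.09 at 24 h (adjusted p = 6.35e-05 and 0.000433). Pomp, the chaperone that matures the beta ring, was at 9.38 and 9.38 in AF+BCNU cells at 24 h, against 8.95 and 8.80 in controls (0.50 ± 0.11, adjusted p = 0.00297), with a difference of 0.03 ± 0.11 at 8 h (adjusted p = 0.9). The ubiquitin-removing enzymes Usp14 and Uchl5 differed from control by 0.24 ± 0.12 and 0.36 ± 0.13 with AF+BCNU at 24 h, with adjusted p of 0.213 and 0.0714.

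Of 8 measured genes for ubiquitin shuttling and the p97 complex, 0 were called with any drug at 8 or 24 h. The shares of all genes called in those comparisons were at most 5.72% higher and 5.58% lower, so 0 of 8 does not set these genes apart. Of 7 measured genes around NRF1 and NRF2, 3 were called higher with AF+BCNU at 8 h: Nfe2l2, which encodes NRF2, by 0.94 ± 0.08, and the small Maf partners Maff and Mafk by 2.03 ± 0.205 and 1.42 ± 0.25 (adjusted p = 3.61e-08, 7.6e-07 and 0.000343). Nfe2l2 was at 10.60 and 10.58 in AF+BCNU cells, against 9.68 and 9.61 in controls. Of all genes, 5.72% were called higher there. With AF alone 1 of the 7 was called higher at 4 h and 1 at 8 h (0.242% and 0.916% of all genes). With BCNU alone 1 was at 4 h and 2 were at 8 h (0.391% and 0.879%). Mafg, also of the 7, was at 7.01 and 6.89 with AF and 6.66 and 7.02 with BCNU at 8 h. With AF+BCNU Mafg was at 6.36 and 6.13, against 5.83 and 5.98 in controls. Nfe2l1, which encodes NRF1, was at 8.39 and 8.39 in AF+BCNU cells at 24 h, against 8.60 and 8.69 in controls, a change of -0.25 ± 0.10 (adjusted p = 0.121), and at 8 h it differed by 0.06 ± 0.10 (adjusted p = 0.786).

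Markers of other cell types moved with AF+BCNU in the same arrays. Of 8 preadipocyte and fibroblast markers 8 were called lower at 24 h, and the sum of their log2 levels was 57.94 to 58.21 in AF+BCNU cells, against 77.43 to 77.73 in controls. At 8 h 5 of the 8 were called lower with AF+BCNU and 5 with BCNU, with sums of 72.78 to 73.33 and 74.51 to 74.78, against 78.01 to 78.04 in controls. At 24 h 1 was called higher and 4 lower with AF, and 1 lower with BCNU. With AF+BCNU 5.72% of all genes were called higher and 5.58% lower at 8 h, and 4.88% and 4.25% at 24 h. With BCNU 1.38% were called lower at 8 h and 0.0697% at 24 h. With AF 0.921% were called higher and 0.358% lower at 24 h. Of 6 macrophage markers 2 (Cd68 and Itgam) were called higher at 8 and 24 h, with sums of 21.51 to 22.84 in AF+BCNU cells at 24 h against 18.42 to 18.79 in controls, while Lyz2 was called lower at 24 h, and Adgre1 lay between 1.51 and 2.46, Ptprc between 1.96 and 2.55 and Csf1r between 1.99 and 3.03 over all arrays. Of 9 measured adipocyte markers 0 were called at either time, and their sums were 103.9 to 104.1 in AF+BCNU cells at 8 h against 105.2 to 105.5 in controls, and 103.9 to 104.3 at 24 h against 105.2 to 105.8 in controls. The part of these shifts in the proteasome values was not tested. In bulk RNA fewer cells of a type and less RNA per cell cannot be told apart.

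Without drug the median of the members stayed close to its starting level. Control cells at 4, 8 and 24 h had member medians of 0.010, -0.012 and -0.054 against untreated cells at 0 h. In all 3 comparisons 0 of 46 members were called, as were 0% of all genes, and 2, 1 and 2 members had an unadjusted p under 0.05, where 4.71%, 4.26% and 4.44% of all genes did. At 24 h 16 of 46 members were above 0 in control cells, against 46.3% of all genes. Of the members named above as higher with AF+BCNU, Psmb4, Psmc6 and Psmb2 were at -0.22 ± 0.10, -0.20 ± 0.09 and -0.19 ± 0.10 there. Both of their 24 h control arrays lay below both 0 h arrays, with unadjusted p (limma) of 0.0438, 0.0361 and 0.0678. The share of all genes with such arrays is not given here. These genes were named for rises against the same 24 h controls, a choice that favours low controls. No fall of the controls is therefore concluded. Psmc2 and Psmd8 were at -0.07 ± 0.12 and -0.01 ± 0.10, with overlapping arrays. With a single drug for 2 h, measured against the 0 h arrays, 27 members were above 0 with AF and 27 with BCNU, against 50.5% and 50.7% of all genes, with medians of 0.024 and 0.039. With a single drug for 4 h 31 members were above 0 with AF and 29 with BCNU, against 52.1% and 49.7% of all genes, with medians of 0.066 and 0.044. No member was called in these 4 comparisons, and 1 and 4 members with AF and 0 and 2 with BCNU had an unadjusted p under 0.05, where 5.37% and 6.92% and 5.79% and 10.5% of all genes did. Each 2 h median depended on single arrays, and on leaving out 1 array that with AF ran from -0.008 to 0.049 and that with BCNU from 0.008 to 0.046. The shares of all genes called at 2 and 4 h were 0.0697% and 0.242% higher with AF and 0% and 0.0418% lower, and with BCNU 0.0325% and 0.391% higher and 0.0139% and 0.4% lower.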

How the data were processed

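Expression was measured with 32 Affymetrix MoGene-2_1-st arrays, 2 in each of 16 groups. The deposited values are log2 levels that the authors made with RMA over all arrays together (version not given in the sources used here), after which transcripts without an approved symbol were removed. Because RMA equalises the arrays, a shift shared by most genes cannot be seen. The table holds 25293 probe sets: 22030 with 1 gene symbol, 685 with several and 2578 with none in the platform annotation. The first were used, and the 465 genes with several probe sets were collapsed by the median, which gave 21506 genes. The 46 members lay in 47 probe sets.

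Group means over all 32 arrays were fitted with limma 3.58.1 in R 4.3.3 (16 residual degrees of freedom, prior SD 0.149) and compared in 34 contrasts, 12 of them drug against control. AF+BCNU contrasts with AF, BCNU and control share arrays, as do the 3 drugs' contrasts with 1 control. The median SE of a drug change was 0.107 for members, and the number of arrays limits the precision. The fit was tested on simulated data. No filter on low values was applied. Sequences came from the RefSeq tables of GRCm38.p6.

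Members and lists were chosen with earlier results of these data known. Named were all members called against control, the 3 highest and lowest of each drug at 24 h, fixed members of interest, and called members of the accompanying lists at 8 or 24 h of AF+BCNU. Adrm1, among others on those lists, was not analysed here. Alternatives covered scaling, probe sets, low values, the prior, the arrays fitted, a replicate block, the minimum change, the control and leaving out each array.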

Additional observations from a re-analysis of the deposited data

Results flagged for a closer look

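In 9 cases a member was called in a test of a difference between drug conditions. At 8 h the AF+BCNU effect fell short of the sum of the AF and BCNU effects for Psmd5 (-0.66 on the log2 scale, adjusted p = 0.00116 by limma), Psmd1 (-0.58, adjusted p = 0.00496), Psme4 (-0.50, adjusted p = 0.0136) and Psmd11 (-0.52, adjusted p = 0.0321). In each of these 4 genes both arrays of either single drug lay above both control arrays.

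At 24 h Psmc6 and Psmc2 were higher with AF+BCNU than with BCNU, by 0.53 (adjusted p = 0.000362) and 0.54 (adjusted p = 0.00429), and Psmb5 was higher with AF than with BCNU by 0.51 (adjusted p = 0.0391). At 8 h Psmb8 was higher with AF+BCNU than with BCNU by 0.76 (adjusted p = 0.00847). At 4 h Psma8 was higher with AF+BCNU than with AF by 1.16 (adjusted p = 0.00658), with AF levels near background.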

How the results depend on the processing

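The directions of the member medians with AF+BCNU held under every alternative run, between 0.083 and 0.249, and precision was limited by 2 arrays a group. The replicate numbers did not pair the arrays (0 of 120 pairs of groups correlated above 0.1, r of -0.048 to 0.0617). With the replicate block, 4 members were called higher with AF+BCNU at 24 h and 3 at 8 h, and it moved no other count by over 1.5 times.

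With only the arrays of the compared groups, which leaves fewer arrays for the spread, 0 members were called in each of the 7 comparisons that had calls: AF+BCNU against control at 8 and 24 h, the 8 h interaction, AF+BCNU against AF at 4 h, AF+BCNU against BCNU at 8 and 24 h, and AF against BCNU at 24 h. With no minimum change, 4, 1 and 2 members were higher with AF at 8 h, AF at 24 h and BCNU at 8 h. For AF+BCNU against control the counts were then 4 higher at 4 h, 8 higher and 1 lower at 8 h, and 10 higher and 1 lower at 24 h. Of the 21506 genes, 821, 1679 and 1441 passed on the higher side at those times, and 1058, 1794 and 1413 on the lower. For AF+BCNU against AF they were 3 higher at 4 h, 2 higher and 4 lower at 8 h and 3 higher at 24 h. There an unadjusted p under 0.05 (limma) was found for 10, 16 and 10 members, and for 21.1%, 27.7% and 22.2% of all genes. Against BCNU it was found for 9, 10 and 23 members, and for 17.6%, 25.8% and 23.4% of all genes. The shares of all genes at the adjusted p in these comparisons are not given here, so the counts are not read as particular to the members. For AF+BCNU against BCNU the counts at the adjusted p were 1 higher at 4 h, 2 higher and 2 lower at 8 h and 10 higher and 1 lower at 24 h. For AF against BCNU 7 were higher at 24 h (1.85% of all genes).

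Centring the arrays gave AF+BCNU medians of 0.095 at 8 h and 0.171 at 24 h, 9 members called lower in the 8 h interaction, 1 called lower (Psme3) with AF+BCNU against BCNU at 8 h, and 0 called higher at 24 h with AF+BCNU or AF against BCNU. Cyclic loess gave 5 called higher with AF+BCNU at 8 h, 1 higher (Psme1) and 2 lower in the 8 h interaction, and 2 higher with AF+BCNU against AF at 4 h. Keeping probe sets of several symbols gave 2 called higher with AF against BCNU at 24 h, and there Psma4, left out of the 46, differed from control by 0.44 and 0.45 with AF+BCNU at 8 and 24 h (adjusted p = 0.0554 and 0.0579). A prior with an intensity trend gave 1 called higher (Psme1) in the 8 h interaction. With 4 h controls at 2 h the BCNU median was -0.019. With all 8 untreated and control arrays as the control, 1 member was called higher with AF at 8 h, 1 with AF at 24 h, 2 with AF+BCNU at 4 h and 1 with AF+BCNU at 24 h, the AF median at 24 h was 0.123 and the BCNU median at 4 h 0.088. The cause of these shifts was not tested.

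Over the fits that left out 1 array, counts of members called higher ran from 2 to 4 with AF+BCNU at 24 h, from 0 to 1 with AF at 8 h and AF+BCNU at 4 h, from 0 to 1 with AF+BCNU against AF at 4, 8 and 24 h and against BCNU at 8 h, from 0 to 3 with AF against BCNU at 24 h and from 0 to 1 in the 8 h interaction. Counts called lower ran from 2 to 5 in that interaction and from 0 to 1 with AF+BCNU against BCNU at 24 h. Member medians ran from -0.008 to 0.049 with AF at 2 h, 0.008 to 0.046 with BCNU at 2 h, 0.009 to 0.135 with AF at 4 h, 0.093 to 0.247 with AF at 24 h, -0.002 to 0.084 with BCNU at 4 h, 0.112 to 0.197 with BCNU at 8 h, -0.036 to 0.015 with BCNU at 24 h, 0.124 to 0.227 with AF+BCNU at 4 h and 0.143 to 0.236 with AF+BCNU at 8 h.

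Psmg3 with AF+BCNU at 24 h, -0.07 as reported and never called, was 0.018 with all 8 control arrays and ran from -0.371 to 0.240 over the fits that left out 1 array. It was above 0 without the first 24 h control array (0.240) and without the first AF+BCNU array (0.0079). Under the alternatives that left out no array, 273 of the single-gene values kept their direction and call, 28 lost the call, 3 gained it and 1 (Psmg3) reversed.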
